A study of Mus musculus with 24 samples.

Results

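A set of 9 genes placed at the centre of fat cell formation and lipid storage were followed in C2C12 cells, an established mouse myoblast line that normally fuses into myotubes when serum is reduced. They were taken by symbol and are 9 of the 24043 genes in the deposited expression table: the transcription factors Pparg, Cebpa, Cebpb and Cebpd, and the fatty acid handling genes Fabp3, Fabp4, Lpl, Cd36 and Plin2. RNA was sequenced from 8 of the 24 samples of the series, as 2 replicates (A and B) in each of 4 groups. The chromatin samples were not analysed here. The groups were C2C12 cells, with no genetic change named in the labels, kept either in growth medium (fetal bovine serum) or in differentiation medium (horse serum plus the supplement ITS), and each medium was used at 21% oxygen (normoxia) and at 2% oxygen (hypoxia). The labels do not say whether the replicates were separate cultures, so the p-values measure the spread between these libraries, which may in part be technical, and results from 1 cell line describe that line. The question asked of these genes was whether myoblasts that do not form muscle under hypoxia show the expression of another mesenchymal fate.

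Myoblasts and preadipocytes both arise from mesenchymal lineages, and adipogenesis in culture is known as a cascade. CEBPB and CEBPD are early basic leucine zipper factors that act on the genes for PPARG, a nuclear receptor activated by fatty acid ligands, and CEBPA, which together turn on the fat storage programme. The downstream genes work in order along the path of a fatty acid: LPL releases it from lipoprotein triglyceride, CD36 helps it across the plasma membrane, FABP3 (the heart and muscle form) and FABP4 (the adipocyte and macrophage form) carry it in the cytosol, and PLIN2 coats the droplet in which it is stored. Skeletal muscle also uses LPL, CD36 and FABP3 to burn fatty acids, so these genes are shared between muscle and fat.

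Expression was given as FPKM, fragments scaled to transcript length and library size, which allows levels to be compared between genes. Changes were fitted as differences of log2(FPKM + 1) with limma over 12389 genes whose mean was at least 1 FPKM in 1 or more groups, with Benjamini-Hochberg adjustment over those genes and a threshold of 0.05 on the adjusted p; a fold is a ratio of group means in FPKM. Absolute read counts were not at hand, and relative depth recovered from the steps between low values ran from 0.633 to 1.0 over the 8 libraries. The pair in hypoxic differentiation medium stood apart, with 613 genes differing over 2-fold between A and B against 56 to 71 in the other groups. Median changes of all genes ran from -0.20 to 0.15 over the 4 comparisons of groups and moved to between -0.04 and 0.03 under median-of-ratios scaling. That scaling moved the share of all calls that were higher from 38.4% to 53.2% for differentiation in normoxia, from 32.6% to 43.2% for hypoxia in growth medium, from 57.5% to 46.7% for hypoxia in differentiation medium and from 65.5% to 47.7% in the test of medium by oxygen interaction. Upper-quartile scaling moved the share to 49.1% for hypoxia in growth medium and to 53.8% for the interaction. Muscle markers set normoxic differentiation medium apart: the sum of 11 genes was 8350 to 8352 FPKM there and 347 to 419.6 in normoxic growth medium. In hypoxia the sum was 98.8 and 106 in growth medium and 61.6 and 83.2 in differentiation medium, so it did not rise with the medium. Its largest part there was Des, at 60.3 and 66.4 and then 28.6 and 53.1 FPKM. Single markers differed from the sum: of the 11, 4 were called higher with the medium in hypoxia and 1 lower. The shares of all genes tested were 23.3% and 17.6%. Myog went from 0.342 and 0.442 to 4.49 and 2.14 FPKM, and Myod1 from 25.1 and 26.1 to 6.95 and 11.8.

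**Figure D1:**
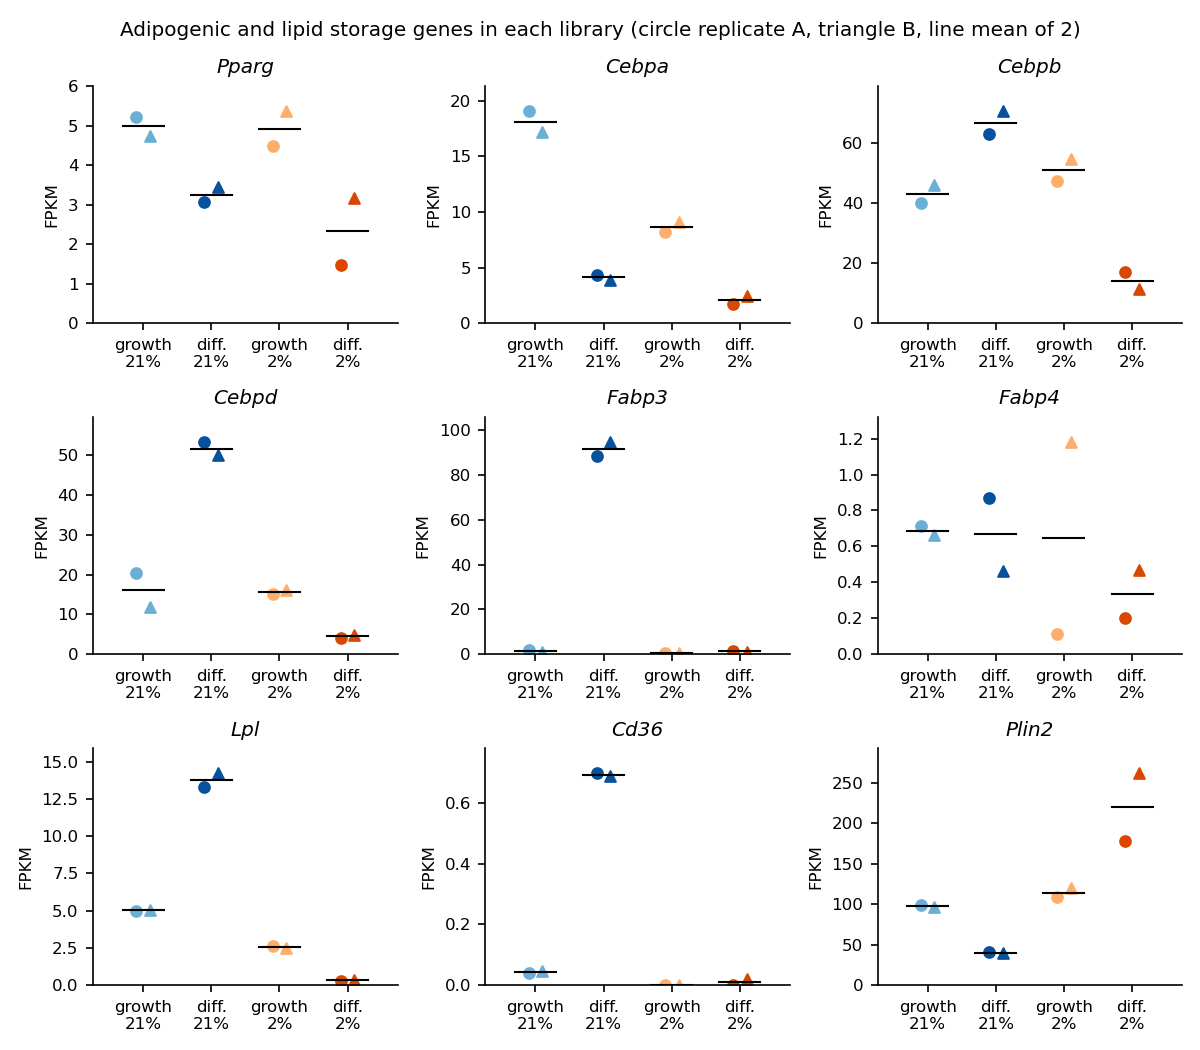
FPKM of each of the 9 genes (vertical axes, linear, from 0) in the 4 groups, with a circle for replicate A, a triangle for replicate B and a line at the mean of 2. Fabp3, Lpl, Cd36, Cebpb and Cebpd were at their highest in normoxic differentiation medium, Plin2 at its lowest there, and Cebpa at its highest in normoxic growth medium.

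Of the 9 genes, 7 passed the filter on low values and were tested. Fabp4 and Cd36 did not pass in any group and are given by their values. In normoxia, differentiation medium raised 4 of the 7 (Cebpb, Cebpd, Fabp3, Lpl) and lowered 2 (Cebpa, Plin2), where 25.5% of all genes tested were called higher and 41.0% lower. In hypoxia, the same change of medium raised 1 (Plin2) and lowered 5 (Pparg, Cebpa, Cebpb, Cebpd, Lpl), against 23.3% and 17.6% of all genes. Hypoxia lowered Cebpa and Lpl in growth medium and raised none, where 13.5% of all genes were called higher and 28.0% lower. In differentiation medium hypoxia raised Plin2 and lowered Cebpa, Cebpb, Cebpd, Fabp3 and Lpl, against 37.5% and 27.7% of all genes. The counts for differentiation in hypoxia were 0 and 4 with only the samples compared and 1 and 4 without the filter on low values. They also changed when any library outside hypoxic differentiation medium was left out. The directions held: with 1 library left out, the change ran from 0.64 to 1.19 for Plin2 and from -1.26 to -0.50 for Pparg. It ran from -1.81 to -1.48 for Cebpa, -2.09 to -1.54 for Cebpb, -1.69 to -1.54 for Cebpd and -1.461 to -1.415 for Lpl. Those for hypoxia in differentiation medium were 1 and 5 with only the samples compared and 1 and 6 under median-of-ratios scaling. For hypoxia in growth medium Plin2 ran from 0.16 to 0.29 with 1 library left out. The median change of the 7 was 0.62, -1.44, -0.02 and -2.20 on the log2 scale in these 4 comparisons, beside -0.20, 0.07, -0.14 and 0.15 over all genes tested. Comparisons that share a group share its libraries, so their counts are not independent. In bulk RNA, fewer cells of a type and less RNA per cell cannot be told apart in any of these values.

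**Figure D2:**
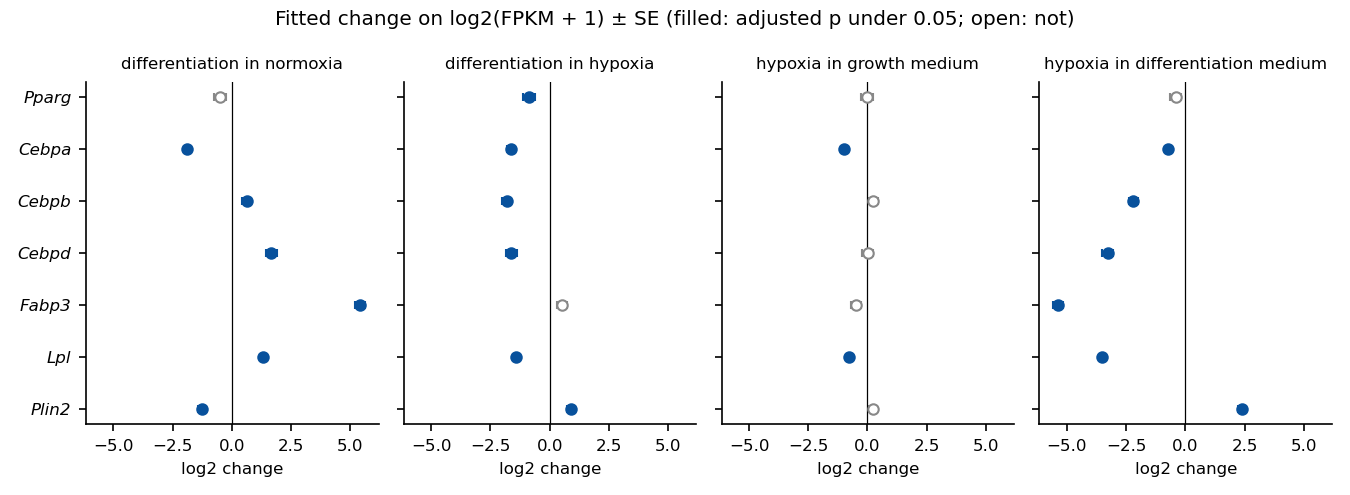
Fitted log2 change ± SE (horizontal axes, log2(FPKM + 1) scale) of the 7 tested genes in 4 comparisons, filled where the adjusted p was under 0.05. The panel for hypoxia in differentiation medium runs from -5.38 for Fabp3 to 2.41 for Plin2, and the panel for hypoxia in growth medium stays within 1 unit of 0.

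Pparg, the nuclear receptor without which adipocytes do not form, was present at a low level throughout. Its FPKM was 5.22 and 4.75 in growth medium under normoxia and 4.48 and 5.37 under hypoxia, and 3.07 and 3.44 in differentiation medium under normoxia and 1.46 and 3.18 under hypoxia. Both growth medium groups overlapped and lay above both differentiation medium groups, which overlapped each other. The fall in differentiation medium passed the test in hypoxia, by 0.88 ± 0.24 (SE) on the log2 scale with an adjusted p of 0.0273, but not in normoxia, where the difference was -0.49 ± 0.24 with an adjusted p of 0.111. The difference between these responses was -0.39 ± 0.34 and did not pass the test (adjusted p = 0.366). It depended on the library used, at -0.0048 without replicate A and -0.77 without replicate B of hypoxic differentiation medium. The hypoxic call was lost when only the 4 hypoxic libraries were fitted (adjusted p = 0.116), without the filter on low values (0.0511) and without any 1 of the 6 libraries of the other groups (0.0504 to 0.14), and the change was -0.50 without replicate A and -1.26 without replicate B of hypoxic differentiation medium. The normoxic fall passed the test without either of those libraries (0.00686 and 0.00696) and when only the 4 normoxic libraries were fitted (0.00956). No difference with hypoxia was detectable in growth medium (-0.02 ± 0.24, adjusted p = 0.964), and in differentiation medium the difference was -0.41 ± 0.24 (adjusted p = 0.177), which came to -0.02 without replicate A and to -0.79 with an adjusted p of 0.00267 without replicate B, and passed under median-of-ratios scaling (adjusted p = 0.0492).

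Pparg starts at several promoters, one of which serves the adipocyte isoform, and gene FPKM adds the isoforms together. RefSeq promoter windows on GRCm38.p6, from 250 bases before to 30 after a transcript start, were at hand for 6 of the 9 genes, with 3 for Pparg. They were searched on both strands for the hypoxia response core (ACGTG or GCGTG), the C/EBP motif TTGCNNAA, the E-box CAGCTG favoured by MyoD and the nuclear receptor half-site AGGTCA, found in 41.8%, 10.4%, 14.9% and 15.3% of all 32851 windows of that length. The most downstream Pparg window, chr6:115421816-115422095 on the plus strand, is shown because it was the only one of the 8 windows with a C/EBP motif, and it held 2, starting 215 and 16 bases before the start, in capitals:
Pparg, window 3: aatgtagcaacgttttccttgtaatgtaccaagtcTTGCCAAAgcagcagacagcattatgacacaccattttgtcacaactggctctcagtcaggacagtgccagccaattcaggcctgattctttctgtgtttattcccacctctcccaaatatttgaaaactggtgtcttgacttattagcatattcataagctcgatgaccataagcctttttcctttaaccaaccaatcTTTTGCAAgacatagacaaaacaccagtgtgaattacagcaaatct
The first Pparg window (chr6:115360894-115361173) held 2 hypoxia response cores and 1 half-site, and the second (chr6:115362099-115362378) held 1 half-site. A match describes letters in a window and is no evidence that a factor binds there.

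Cebpa, the C/EBP member that sustains Pparg expression in mature fat cells, fell in every comparison. In growth medium it read 19.1 and 17.2 FPKM under normoxia and 8.20 and 9.12 under hypoxia, and in differentiation medium 4.33 and 3.91 under normoxia and 1.75 and 2.46 under hypoxia. The 4 groups did not overlap, and each step down that order was larger than the spread between replicates. Differentiation medium lowered Cebpa 4.4-fold in normoxia (log2 change -1.90 ± 0.14, adjusted p = 4.29e-05) and 4.11-fold in hypoxia (-1.64 ± 0.14, adjusted p = 0.000534). Hypoxia lowered it 2.09-fold in growth medium (-0.98 ± 0.14, adjusted p = 0.00215) and 1.95-fold in differentiation medium (-0.73 ± 0.14, adjusted p = 0.00354). The response to medium did not differ detectably between oxygen levels, with an interaction of 0.26 ± 0.20 (adjusted p = 0.311) whose sign turned under median-of-ratios scaling (-0.021). Its RefSeq promoter window (chr7:35119043-35119322) held none of the 4 motifs.

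Cebpb, an early factor of the cascade that also responds to inflammatory and stress signals, moved in opposite directions at the 2 oxygen levels. It measured 40.1 and 46.3 FPKM in growth medium under normoxia and 47.6 and 54.7 under hypoxia, and 63.1 and 70.7 in differentiation medium under normoxia and 16.9 and 11.3 under hypoxia. The hypoxic differentiation libraries were the lowest and the normoxic ones the highest, with no overlap between any groups. In normoxia the rise was 1.55-fold (0.62 ± 0.19, adjusted p = 0.0228), a call lost without replicate A of normoxic growth medium (adjusted p = 0.118) or without either library of normoxic differentiation medium (0.0644 without A and 0.126 without B). In hypoxia Cebpb fell 3.63-fold (-1.81 ± 0.19, adjusted p = 0.000884), and within differentiation medium it was 4.75-fold lower in hypoxia (-2.20 ± 0.19, adjusted p = 7.63e-05). Its level in growth medium differed by 0.24 ± 0.19 between oxygen levels, which did not pass the test (adjusted p = 0.343).

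Cebpd, its partner in the early phase, also rose with differentiation medium in normoxia and fell in hypoxia. Values were 20.3 and 11.9 FPKM in growth medium under normoxia and 15.0 and 16.2 under hypoxia, and 53.3 and 50.1 in differentiation medium under normoxia and 4.15 and 4.70 under hypoxia. Only the growth medium groups overlapped, and there the difference was 0.01 ± 0.22 (adjusted p = 0.991). Differentiation medium raised Cebpd 3.21-fold in normoxia (1.67 ± 0.22, adjusted p = 0.00059) and lowered it 3.53-fold in hypoxia (-1.62 ± 0.22, adjusted p = 0.00217). Within differentiation medium it was 11.7-fold lower in hypoxia (-3.28 ± 0.22, adjusted p = 2.7e-05).

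Added together, the 3 C/EBP factors came to 121 and 125 FPKM in normoxic differentiation medium, 70.8 to 80.1 over the 4 growth medium libraries, and 22.8 and 18.4 in hypoxic differentiation medium. Cebpa made up 24.0% and 22.8% of that sum in normoxic growth medium and 3.59% and 3.13% in normoxic differentiation medium. Its share was 11.6% and 11.4% in hypoxic growth medium and 7.69% and 13.4% in hypoxic differentiation medium. Cebpb was the largest part in every library, at 50.5% to 74.1%.

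**Figure D3:**
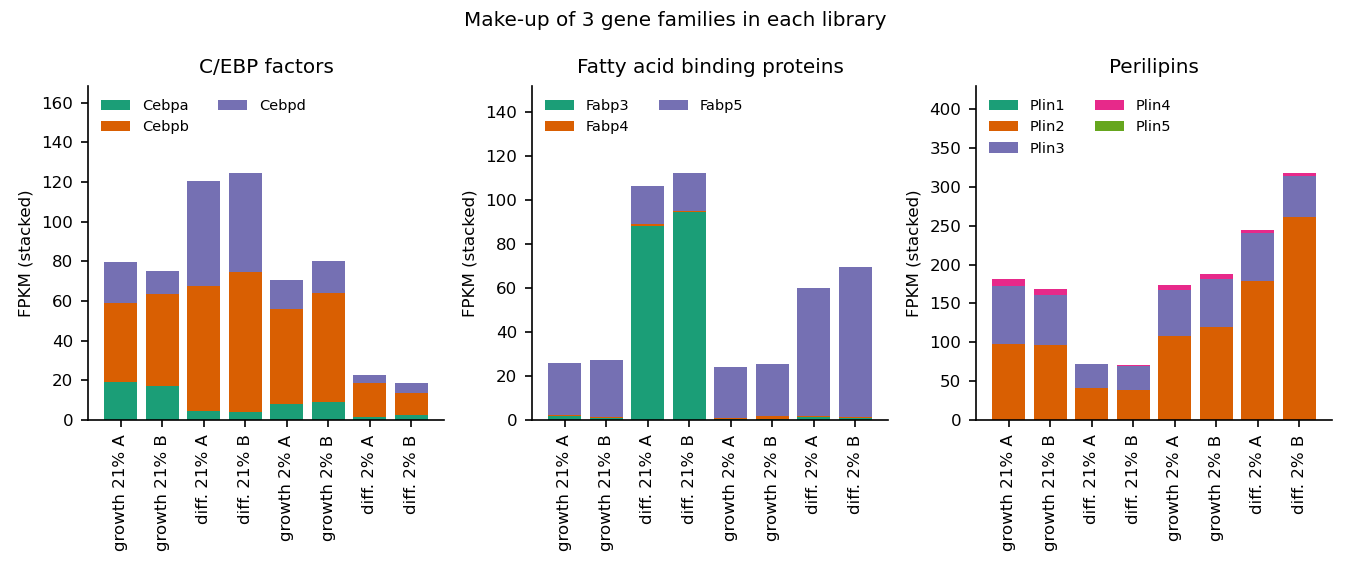
Stacked FPKM (vertical axes, linear) of the C/EBP factors, the fatty acid binding proteins and the perilipins in each of the 8 libraries. The C/EBP stack is lowest in hypoxic differentiation medium, Fabp3 fills 83.0% and 84.0% of the binding protein stack in normoxic differentiation medium and at most 6.36% elsewhere, and Plin2 is the largest perilipin in every library.

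Fabp3, the muscle and heart fatty acid carrier, was high in 1 group alone. It stood at 88.4 and 94.6 FPKM in normoxic differentiation medium, against 1.65 and 0.773 in normoxic growth medium, 0.614 and 0.473 in hypoxic growth medium, and 1.54 and 0.942 in hypoxic differentiation medium. The other 6 libraries lay between 0.473 and 1.65 FPKM. The rise in normoxia was 75.6-fold (5.42 ± 0.22, adjusted p = 3.15e-06), and within differentiation medium the hypoxic level was 73.7-fold lower (-5.38 ± 0.22, adjusted p = 2.77e-06). In hypoxia the change with differentiation medium was 0.53 ± 0.22 and did not pass the test (adjusted p = 0.0936), nor did the effect of hypoxia in growth medium (-0.49 ± 0.22, adjusted p = 0.113). Without replicate B of normoxic growth medium the effect of hypoxia there was -0.78 and passed (adjusted p = 0.0313), and the change in hypoxia passed without either library of that group (adjusted p = 0.0487). The genome holds a processed pseudogene of Fabp3, and how the counting treated reads shared with it is not given in the sources used here.

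The RefSeq promoter window of Fabp3, chr4:130308488-130308767 on the plus strand, is shown beside that of Plin2 because these 2 genes made the largest moves in opposite directions in hypoxic against normoxic differentiation medium. The Fabp3 window held none of the 4 motifs. The Plin2 window, chr4:86670030-86670309 on the minus strand, held 3 matches to the hypoxia response core, 1 CAGCTG and 1 half-site (as TGACCT), in capitals; 2 of the cores overlap on opposite strands as CACGTG, which begins 4 bases before the transcript start:
Fabp3: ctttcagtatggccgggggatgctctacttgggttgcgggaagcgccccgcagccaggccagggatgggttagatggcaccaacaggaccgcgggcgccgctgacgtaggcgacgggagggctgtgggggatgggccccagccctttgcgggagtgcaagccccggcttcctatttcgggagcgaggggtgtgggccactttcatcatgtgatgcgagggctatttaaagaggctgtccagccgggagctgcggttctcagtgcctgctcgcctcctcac
Plin2: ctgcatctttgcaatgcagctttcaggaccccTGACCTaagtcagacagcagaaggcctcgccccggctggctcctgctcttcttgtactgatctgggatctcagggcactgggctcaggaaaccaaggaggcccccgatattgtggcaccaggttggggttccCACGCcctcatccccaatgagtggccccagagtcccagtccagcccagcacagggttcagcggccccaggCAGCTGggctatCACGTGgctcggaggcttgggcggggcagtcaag
The windows of Cebpb (chr2:167688665-167688944) and Cd36 (chr5:17835867-17836146) held 1 hypoxia response core and 1 half-site, respectively.

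Fabp4, the classical adipocyte carrier, was low in every group. The values were 0.714 and 0.661 FPKM in growth medium under normoxia and 0.111 and 1.18 under hypoxia, and 0.871 and 0.463 in differentiation medium under normoxia and 0.198 and 0.470 under hypoxia. All 4 comparisons had overlapping groups. Within 0.05 of a whole number, each value was 1 to 10 times the step of its library (5 and 6 steps in normoxic growth medium, 2 and 3 in hypoxic differentiation medium), as it would be if 1 step is 1 fragment, so differences of this size were not detectable at this depth. The 10.6-fold gap between the hypoxic growth replicates was 1 against 10 steps.

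The epidermal form Fabp5, the most abundant of the 3 carriers outside normoxic differentiation medium, behaved differently from both. Fabp5 read 23.5 and 25.7 FPKM in growth medium under normoxia and 23.6 and 23.7 under hypoxia, and 17.2 and 17.5 in differentiation medium under normoxia and 58.2 and 68.1 under hypoxia. It rose with differentiation medium in hypoxia (1.38 ± 0.096, adjusted p = 0.000294) and fell in normoxia (-0.48 ± 0.096, adjusted p = 0.00416, which was 0.0512 under median-of-ratios scaling). Fabp5 made up 97.1% and 98.0% of the carrier sum in hypoxic differentiation medium.

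Lpl, the lipase that frees fatty acids from lipoproteins, differed between all 4 groups. Growth medium gave 4.95 and 5.07 FPKM under normoxia and 2.59 and 2.48 under hypoxia, and differentiation medium gave 13.3 and 14.2 under normoxia and 0.291 and 0.319 under hypoxia. No groups overlapped, and replicates lay within 1.09-fold of each other. Lpl rose 2.75-fold with differentiation medium in normoxia (1.30 ± 0.094, adjusted p = 3.92e-05) and fell 8.31-fold in hypoxia (-1.44 ± 0.094, adjusted p = 0.000268). Hypoxia lowered it 1.98-fold in growth medium (-0.77 ± 0.094, adjusted p = 0.00117) and 45.1-fold in differentiation medium (-3.50 ± 0.094, adjusted p = 5.48e-07). The added pseudocount understates the change of a gene as low as Lpl in hypoxic differentiation medium.

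Cd36, the membrane fatty acid translocase, was under 1 FPKM in every library and had its highest values in normoxic differentiation medium. There it read 0.699 and 0.691 FPKM, against 0.0388 and 0.0449 in normoxic growth medium, while both hypoxic growth libraries and replicate A of hypoxic differentiation medium were listed at 0 and replicate B read 0.0213. The normoxic differentiation libraries did not overlap any other group. When genes under the filter were fitted too, Cd36 was called higher in normoxic differentiation than growth medium (0.70, adjusted p = 5.96e-06) and lower in hypoxic than normoxic differentiation medium (-0.75, adjusted p = 4.45e-06), with an interaction of -0.69 (adjusted p = 4.84e-05). The low values outside that group amounted to at most 3 steps of their library.

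Plin2, the droplet coat protein found in nearly all cells that store lipid, had the highest level of the 9 in every group except normoxic differentiation medium. It was the one member called higher with differentiation medium in hypoxia. Its libraries gave 98.5 and 96.6 FPKM in growth medium under normoxia and 109 and 119.8 under hypoxia, and 40.6 and 39.2 in differentiation medium under normoxia and 179 and 262 under hypoxia. The groups did not overlap, with normoxic differentiation medium lowest and hypoxic differentiation medium highest. Plin2 fell 2.44-fold with differentiation medium in normoxia (-1.27 ± 0.17, adjusted p = 6e-04) and rose 1.93-fold in hypoxia (0.92 ± 0.17, adjusted p = 0.00642). The rise missed the threshold when only the 4 hypoxic libraries were fitted (adjusted p = 0.0566). Within differentiation medium Plin2 was 5.52-fold higher in hypoxia (2.41 ± 0.17, adjusted p = 3.21e-05), while in growth medium the difference of 0.22 ± 0.17 did not pass the test (adjusted p = 0.323).

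Among the 5 perilipins, Plin2 made up 54.3% to 63.6% of the summed FPKM in growth medium, and in differentiation medium 56.3% and 55.7% under normoxia but 72.9% and 82.2% under hypoxia. Plin3, a widely expressed perilipin that moves onto new droplets, held most of the rest, at 16.4% to 43.6%. Plin1, the perilipin of the mature adipocyte droplet, was listed at 0 in every library, and Plin5, the form of oxidative tissues, did not exceed 0.0870 FPKM. Plin4 fell with differentiation medium in normoxia, from 8.25 and 7.42 to 0.540 and 0.435 FPKM (-2.57 ± 0.11, adjusted p = 4.7e-06), and was 3.83 and 4.47 in hypoxic differentiation medium.

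The interaction compares the response to differentiation medium in hypoxia with that in normoxia, and 1 of the 7 tested genes had a higher response in hypoxia and 4 a lower one, against 35.4% and 18.7% of all genes tested. The median over the 7 was -2.43, beside 0.27 over all genes. Fabp3 had the widest gap (-4.89 ± 0.30, adjusted p = 4.84e-05), followed by Cebpd (-3.29 ± 0.31, adjusted p = 0.000247), Lpl (-2.73 ± 0.13, adjusted p = 1.65e-05) and Cebpb (-2.43 ± 0.26, adjusted p = 0.000436). Plin2 went the other way (2.18 ± 0.24, adjusted p = 0.000447). For Cebpb, Cebpd, Lpl and Plin2 the response reversed its direction between oxygen levels, with each direction past the test. The rise of Fabp3 passed the test in normoxia alone. In hypoxia its change was smaller and of the same sign (0.53, adjusted p = 0.0936), and the interaction tests the difference between the 2 responses. The A and B libraries gave the same sign for each of these 5.

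Other regulators known to promote adipogenesis were split. Of 18 such genes, 14 were tested: in normoxia 5 rose and 7 fell with differentiation medium, against 25.5% and 41.0% of all genes tested, and in hypoxia 1 rose and 8 fell, against 23.3% and 17.6%, with medians of -0.16 and -0.38. Without replicate A or without replicate B of hypoxic growth medium, 1 rose and 3 fell in hypoxia, and without either library of normoxic differentiation medium 1 rose and 5 fell. Klf5, a Krüppel-like factor that works with the C/EBPs on Pparg, read 10.1 and 11.0 FPKM in growth medium under normoxia and 12.1 and 11.5 under hypoxia, and 75.9 and 75.4 in differentiation medium under normoxia and 5.84 and 11.8 under hypoxia. It rose with differentiation medium in normoxia (2.73 ± 0.26, adjusted p = 0.000136) and was lower in hypoxia within differentiation medium (-3.03 ± 0.26, adjusted p = 8.45e-05). Klf9 moved likewise, from 4.40 and 5.16 to 23.0 and 23.8 FPKM in normoxia (2.08 ± 0.12, adjusted p = 1.5e-05) and from 13.6 and 12.4 down to 5.50 and 6.59 in hypoxia (-0.99 ± 0.12, adjusted p = 0.00148). Klf4 also rose in normoxia, from 10.4 and 10.3 to 54.1 and 48.4 FPKM, but stayed high in hypoxia. There it read 48.9 and 50.5 in growth medium and 42.3 and 37.1 in differentiation medium (-0.32, adjusted p = 0.0347, which was 0.055 under median-of-ratios scaling). Egr2, an early inducer of the cascade, fell to 0.125 and 0.345 FPKM in hypoxic differentiation medium from 3.22 and 3.64 in hypoxic growth medium (-1.85 ± 0.12, adjusted p = 0.000274). Srebf1, the sterol and fatty acid synthesis factor, moved with differentiation medium in the same directions as Plin2. It fell in normoxia from 52.6 and 44.8 to 12.1 and 13.1 FPKM (-1.86 ± 0.12, adjusted p = 2.12e-05). It rose in hypoxia from 21.9 and 24.4 to 38.8 and 44.6 (0.82 ± 0.12, adjusted p = 0.00249). Unlike Plin2, Srebf1 was called lower with hypoxia in growth medium.

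Of 14 genes known to restrain adipogenesis, 12 were tested. Differentiation medium raised 3 and lowered 5 in normoxia, against 25.5% and 41.0% of all genes. In hypoxia it raised 1 and lowered 3, against 23.3% and 17.6%. Within differentiation medium hypoxia raised 5 and lowered 2, against 37.5% and 27.7%. In growth medium hypoxia raised 5 and lowered none, against 13.5% of all genes called higher and 28.0% lower, with a list median of -0.16. The counts were 5 raised and 3 lowered without replicate A or without replicate B of hypoxic differentiation medium. Bhlhe40, a hypoxia-induced basic helix-loop-helix repressor of Pparg, went from 19.1 and 17.7 FPKM in normoxic to 100.2 and 100.6 in hypoxic growth medium (2.39 ± 0.098, adjusted p = 2.56e-05), and was 68.8 and 60.1 in normoxic and 120.5 and 107 in hypoxic differentiation medium. Ddit3, also called CHOP, a stress-induced partner that keeps C/EBPs from DNA, went from 37.2 and 30.1 to 239 and 233 FPKM with hypoxia in growth medium (2.78 ± 0.19, adjusted p = 0.000137). In differentiation medium Ddit3 read 151 and 155 in normoxia and 136 and 203 in hypoxia, which overlapped. Wnt10b, a secreted Wnt ligand that holds preadipocytes back, fell with differentiation medium in both normoxia (27.5 and 30.6 to 3.34 and 3.53 FPKM, -2.76 ± 0.20, adjusted p = 3.86e-05) and hypoxia (20.9 and 22.3 to 3.43 and 5.89, -2.03 ± 0.20, adjusted p = 0.00076). Dlk1, the surface marker of preadipocytes, was listed at 0 in every library.

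Of 20 genes of triglyceride synthesis and droplet turnover, 18 were tested, and within differentiation medium 7 were higher and 7 lower in hypoxia, against 37.5% and 27.7% of all genes, with a list median of -0.24. Hilpda, a small hypoxia-induced droplet protein that inhibits the lipase ATGL, was 118 and 125 FPKM in hypoxic growth medium and 192 and 178.5 in hypoxic differentiation medium, against 13.0 to 16.9 in the 4 normoxic libraries. That was a rise of 3.11 ± 0.075 in growth medium (adjusted p = 3.05e-06) and of 3.41 ± 0.075 in differentiation medium (adjusted p = 2.58e-07). G0s2, another ATGL inhibitor and a PPARG target in fat, did the reverse, at 159 and 160.5 FPKM in normoxic and 13.9 and 9.62 in hypoxic differentiation medium (-3.67 ± 0.21, adjusted p = 1.26e-05). Dgat2, the last step of triglyceride synthesis, was 20.6 and 19.8 FPKM in normoxic and 4.90 and 5.96 in hypoxic differentiation medium (-1.73 ± 0.13, adjusted p = 4.39e-05). Lpin1, the phosphatidate phosphatase before it, was 2.45 and 2.27 against 15.9 and 27.9 FPKM (2.72 ± 0.23, adjusted p = 7.54e-05).

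Of 27 other genes of fatty acid uptake and activation, 16 were tested, and in hypoxia 11 rose and 1 fell with differentiation medium, against 23.3% and 17.6% of all genes, with a median of 0.51. In normoxia 7 rose and 9 fell, against 25.5% and 41.0%, with a median of -0.36. The hypoxic counts were 7 and 1 without replicate B of hypoxic growth medium. Angptl4, a secreted inhibitor of LPL, was 7.58 and 8.21 FPKM in normoxic and 144 and 152 in hypoxic differentiation medium (4.07 ± 0.099, adjusted p = 3.53e-07), the groups in which Lpl itself was 13.3 and 14.2 and then 0.291 and 0.319. Acsl1, the acyl-CoA synthetase of fat and muscle, was the one that fell in hypoxia: it rose from 6.49 and 6.13 to 16.0 and 16.3 FPKM in normoxia (1.23 ± 0.11, adjusted p = 0.000109) and fell from 3.48 and 3.47 to 1.60 and 1.20 in hypoxia (-0.90 ± 0.11, adjusted p = 0.00161). Cav1, a caveolar coat protein abundant in adipocytes, fell with differentiation medium in normoxia from 144 and 150.4 to 35.7 and 33.0 FPKM (-2.07 ± 0.14, adjusted p = 2.91e-05). In hypoxia it was 173 and 151.5 in growth medium and 253 and 192 in differentiation medium.

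**Figure D4:**
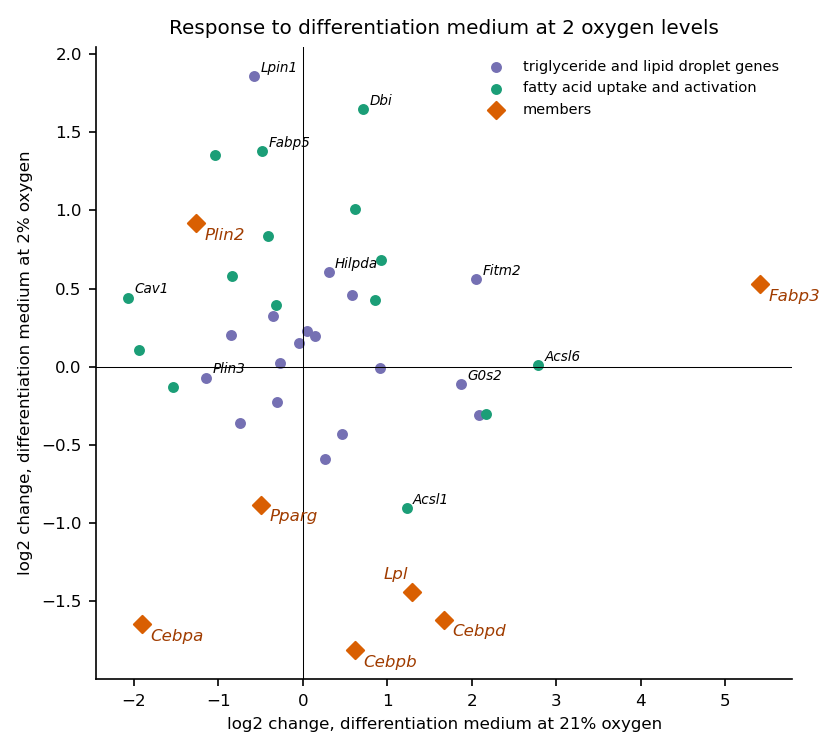
Fitted log2 change with differentiation medium at 21% oxygen (horizontal axis) against that at 2% oxygen (vertical axis) for the 7 tested members (diamonds) and tested genes of 2 lipid lists (dots, 1 gene not shown). Fabp3 lies far to the right at 0.53 on the vertical axis, Cebpb, Cebpd and Lpl at the lower right, and Plin2 at the upper left.

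Genes that mark the finished adipocyte were mostly near 0. Of 18 such markers, 14 stayed under 1 FPKM in every library, and 5 of them (Lep, Plin1, Cidec, Pck1, Thrsp) were listed at 0 throughout. Adipoq, the gene of the adipocyte hormone adiponectin, was listed at 0 in 6 libraries and read 0.126 and 0.133 FPKM in hypoxic differentiation medium. Cfd, or adipsin, read 0.120 in replicate A of that group and 0 elsewhere. Retn read 0.344 and 0.181 in that group and 0 elsewhere. Adig read 0.320 in replicate B of that group and 0.118 in replicate B of normoxic differentiation medium. Adrb3 was instead highest in normoxic differentiation medium, at 0.195 and 0.155 FPKM. The summed level of the 18 was 19.1 to 22.1 FPKM in normoxic growth medium and 14.9 to 16.0 in normoxic differentiation medium. It was 12.6 to 13.1 in hypoxic growth medium and 9.89 to 10.8 in hypoxic differentiation medium, the lowest sums. The 4 tested markers, Lipe, Plin4, Gpd1 and Slc2a4, made up nearly all of each sum, and each is expressed outside fat as well. The sums therefore do not give the direction of the 14 markers under 1 FPKM. Gpd1, glycerol-3-phosphate dehydrogenase, and Slc2a4, the insulin-responsive glucose transporter of fat and muscle, followed Fabp3: Gpd1 was 5.92 and 6.80 FPKM and Slc2a4 6.44 and 6.09 in normoxic differentiation medium, and the highest values elsewhere were 0.793 and 0.924. Lipe, hormone-sensitive lipase, fell with differentiation medium in normoxia from 12.2 and 10.4 to 1.86 and 2.31 FPKM (-2.00 ± 0.12, adjusted p = 2e-05) and stayed at 4.86 to 5.25 in the hypoxic libraries.

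Markers of the bone and cartilage fates were read beside these. Among 12 osteoblast markers, 7 were tested. In hypoxia, differentiation medium lowered 3 and raised 0, where 17.6% of all genes tested were called lower and 23.3% higher. These counts were 3 and 2 without replicate A of hypoxic differentiation medium, 2 and 0 without replicate A of hypoxic growth medium and 1 and 0 without replicate B of it. In differentiation medium, hypoxia lowered 5 and raised 1, against 27.7% and 37.5% of all genes. Bglap, which encodes the bone matrix protein osteocalcin, read 4.86 and 1.38 FPKM in growth medium under normoxia and 0.977 and 0.533 under hypoxia, and 93.0 and 75.5 in differentiation medium under normoxia and 0.949 and 6.66 under hypoxia. It rose with differentiation medium in normoxia (4.51 ± 0.67, adjusted p = 0.00104), as did its near-identical copy Bglap2 (4.75 ± 0.67, adjusted p = 0.000801), with which reads may be shared, so the split between them is uncertain. In hypoxia the change did not pass the test for Bglap (1.15 ± 0.67, adjusted p = 0.213) or Bglap2 (1.46 ± 0.67, adjusted p = 0.125), but both were called higher without replicate A of hypoxic differentiation medium (2.14 with an adjusted p of 0.0153, and 2.61 with 0.000987). Runx2, the osteoblast master factor, was 15.7 and 16.8 FPKM in growth medium under normoxia and 8.36 and 8.12 under hypoxia, and 10.7 and 9.96 in differentiation medium under normoxia and 5.77 and 5.85 under hypoxia, and fell in all 4 comparisons (log2 changes -0.60, -0.44, -0.90 and -0.74, the largest adjusted p being 0.00932). The call for differentiation medium in hypoxia was lost when only the hypoxic libraries were fitted (adjusted p = 0.0612), without replicate A of hypoxic growth medium (0.0677) and without replicate B of it (0.0566). Sp7 and Alpl, which follow Runx2, stayed under 1 FPKM in every library. Spp1, osteopontin, was 1560 and 1580 FPKM in growth medium under normoxia and 603.5 and 642 under hypoxia. In differentiation medium Spp1 was 156 and 154 under normoxia and 126 and 126 under hypoxia. Of 13 chondrocyte markers 11 stayed under 1 FPKM everywhere. Sox9, the cartilage master factor, was 26.5 and 19.7 FPKM in hypoxic and 8.74 and 8.16 in normoxic differentiation medium (1.34 ± 0.14, adjusted p = 0.000197), with 13.8 to 17.4 in the growth medium libraries, while Acan, which it activates in cartilage, was listed at 0 in 7 libraries and read 0.00951 in replicate B of hypoxic differentiation medium.

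**Figure D5:**
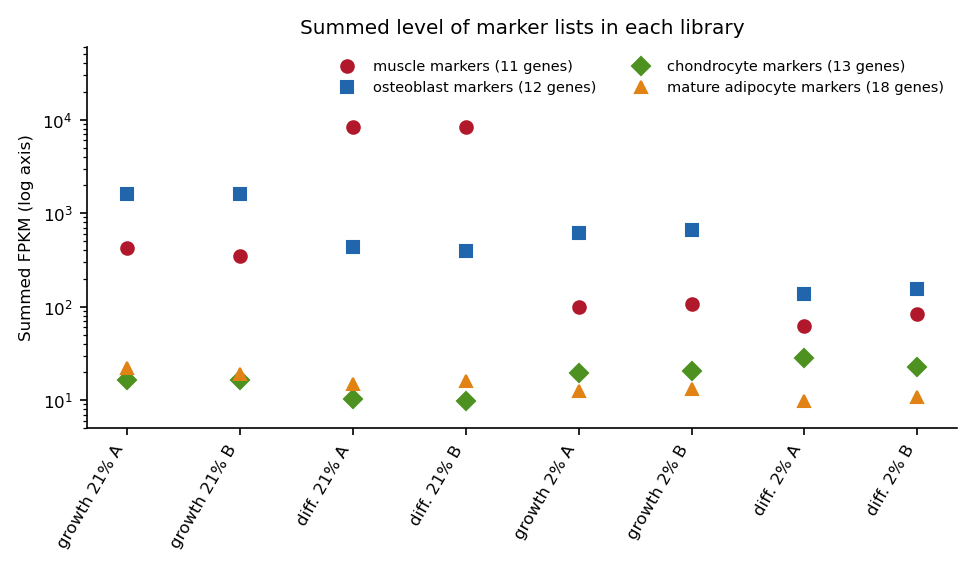
Summed FPKM (vertical axis, log scale) of marker lists for muscle, osteoblast, chondrocyte and adipocyte in each of the 8 libraries. Muscle markers reach 8350 to 8352 in normoxic differentiation medium, and the 18 adipocyte markers lie between 9.89 and 22.1 in all libraries.

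Fabp4, Cd36, Lpl and Plin2 are also expressed by macrophages and endothelial cells. Of 8 macrophage markers, 6 stayed under 1 FPKM in every library, Emr1 and Tyrobp were listed at 0 throughout, and Ptprc, which encodes the pan-leukocyte antigen CD45, read at most 0.0137. The summed macrophage level was 33.7 to 54.7 FPKM in hypoxic differentiation medium, 13.3 to 15.2 in growth medium and 3.87 to 4.46 in normoxic differentiation medium, and its largest part in hypoxic differentiation medium was Cd68, a lysosomal protein, at 25.8 and 42.8. This sum was high where Plin2 was high, and its part in the Plin2 values was not tested. All 8 endothelial markers stayed under 1 FPKM in every library, with sums of at most 0.632.

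The genes whose pattern over the 8 libraries lay nearest to each member were ranked by Pearson r of log2(FPKM + 1) among 7520 genes with a group mean of at least 10 FPKM, as a description in which all points share their libraries. Fabp3 lay nearest to Prkag3, Hspb8 and Myh3 (r = 0.998 for each), of which Myh3 encodes embryonic myosin heavy chain and Prkag3 a skeletal muscle AMP kinase subunit; 854 genes exceeded r = 0.9 with Fabp3. Lpl lay nearest to Acsl1 (0.992), Rilpl1 (0.991) and Dcaf5 (0.988). Cebpd was most like Ier2 (0.990), an immediate early gene, then Fxyd1 (0.988) and Tmbim1 (0.985), and Cebpb most like Tor1aip1 (0.987), Lamc1 (0.984) and Snhg6 (0.984), with 60 genes over 0.9. Cebpa had Fbxl16 (0.997), Gng10 (0.993) and Gypc (0.991) nearest, and Plin2 had Casc3 (0.997), Dcbld2 (0.994) and Spr (0.991). None of the 18 genes named here was nearest to more than 1 member.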

How the data were processed

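RNA from C2C12 cells was sequenced in 8 libraries (4 groups, 2 replicates each) after Trizol extraction and stranded total RNA library preparation, per the labels' protocols. The authors deposited 1 table of gene FPKM for 24043 genes. The submitters' processing notes name STAR 2.5.1b, Cufflinks 2.2.1 and mm9, while the annotation, the use of strand in counting and any further scaling are not given in the sources used here. Values were transformed to log2(FPKM + 1), genes with a group mean of at least 1 FPKM in 1 or more groups (12389 genes) were kept, and 4 group means were fitted to all 8 libraries with limma 3.58.1 in R 4.3.3 (lmFit, contrasts.fit, eBayes with an intensity trend, two-sided, Benjamini-Hochberg over all genes tested, 4 residual and 2.61 prior degrees of freedom). The script was tested on simulated data. Summaries used Python 3.11.15 with pandas 2.3.3 and numpy 2.4.6. All 8 libraries were used in every fit unless a setting left some out.

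Total read counts were not used, so relative depth and the reading of 1 fragment are known only from the steps between low values. No counting interval is given. Alternatives were a pseudocount of 0.1, no filter on low values, median-of-ratios and upper-quartile scaling, fitting only the samples compared, the replicate letter as a block, no intensity trend, a minimum absolute log2 change of 1, and leaving out each library. The members and gene lists were chosen with earlier results of these data known. Genes outside the 9 were named by a rule: the defining genes of each list, the 3 highest, and the 3 largest called changes without overlap per comparison. Promoter windows came from RefSeq on GRCm38.p6, a later build than the deposited data, and were matched by symbol. The values of 1 gene of the uptake list are not reported here, though the counts for that list include it.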

Additional observations from a re-analysis of the deposited data

Results flagged for a closer look

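For 5 genes the response to differentiation medium differed between 2% and 21% oxygen by the test of the difference itself. On the log2(FPKM + 1) scale the response in hypoxia minus that in normoxia was -2.43 for Cebpb, -3.29 for Cebpd, -4.89 for Fabp3, -2.73 for Lpl and 2.18 for Plin2, with the A and B libraries each giving the same sign. The single widest replicate gap among these genes in the groups concerned was for Fabp3 in normoxic growth medium, where A was 2.13-fold B. In groups of 2 no library can be singled out as an outlier.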

How the results depend on the processing

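Of the members' values under all alternatives, 600 were classed as the same. For a tested gene this meant the same direction and side of the threshold, and for an untested one no move beyond the replicate spread. Among the rest, 12 lost a call, 11 gained one, 7 tested differences turned in sign and 8 values without a test moved by more than that spread. Each of those 7 turns was in a difference that had not passed the test. Fabp4, which was not tested, also turned in sign when 1 library was left out, running from -0.72 to 0.26 for differentiation in hypoxia. Pparg with hypoxia in growth medium, -0.02 as reported, was 0.080 under median-of-ratios and 0.12 under upper-quartile scaling and ran from -0.13 to 0.090 when 1 library was left out. Cebpd in the same comparison, 0.01 as reported, ran from -0.36 to 0.37 when 1 library was left out. The interaction of Cebpa was -0.021 under median-of-ratios scaling. With a minimum log2 change of 1, the number of members called for hypoxia in growth medium fell from 2 to 0. The same minimum left 3542 of 8241 genes called over the whole table for differentiation in normoxia, 925 of 5073 for differentiation in hypoxia, 1268 of 5135 for hypoxia in growth medium, 3420 of 8075 for hypoxia in differentiation medium and 3410 of 6707 for the interaction. Fitting only the samples compared gave 2867 genes for differentiation in hypoxia. Leaving out 1 library gave 2503 to 6479 genes for that comparison and 2989 to 6831 for hypoxia in growth medium, the lowest without a library of hypoxic growth medium, where 1 sample stood for that group and was assumed to vary like the others.

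No shift shared by replicate letter was seen: the B minus A differences of 2 groups correlated between -0.17 and 0.042 over genes. These correlations cannot show whether libraries of the same letter were prepared together. With the letter as a replicate block, 6, 6, 2, 6 and 5 members were called in the 5 comparisons (differentiation in normoxia, in hypoxia, hypoxia in growth medium, in differentiation medium, interaction), the same numbers as without it, and 4453 genes over the whole table for differentiation in hypoxia. Depth limits Fabp4 and Cd36, whose low values amount to a few steps of their library.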

Other observations

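Genes of fatty acid oxidation outside the members were lower in hypoxia in growth medium: of 21, 19 were tested, and 13 fell and 0 rose, against 28.0% and 13.5% of all genes, with a median of -0.44. Under upper-quartile scaling 8 fell and 0 rose. Without replicate A of hypoxic growth medium 8 fell, and without either library of hypoxic differentiation medium, or with only the samples compared, 16 fell and 1 rose. The one that rose there was Pdk4, a kinase that restrains pyruvate oxidation (0.97, adjusted p = 0.144 with all libraries, 0.000282 and 0.000305 without A and without B of hypoxic differentiation medium, and 0.00268 with only the samples compared). Cpt1a, the carnitine transferase that admits long-chain fatty acids to mitochondria, read 66.4 and 69.8 FPKM in growth medium under normoxia and 50.8 and 53.4 under hypoxia, and 6.21 and 6.29 in differentiation medium under normoxia and 22.4 and 29.4 under hypoxia. It fell with differentiation medium in normoxia (-3.25 ± 0.13, adjusted p = 2.85e-06) and in hypoxia (-0.99 ± 0.13, adjusted p = 0.00175).

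The other PPAR receptors differed from Pparg in level. Ppard, the widely expressed form, was 25.5 and 22.9 FPKM in growth medium under normoxia and 18.4 and 19.5 under hypoxia, and 13.1 and 10.8 in differentiation medium under normoxia and 18.9 and 27.5 under hypoxia. It fell with differentiation medium in normoxia (-0.96 ± 0.18, adjusted p = 0.00312) and was higher in hypoxia within differentiation medium (0.88 ± 0.18, adjusted p = 0.00467). Ppara, the form of liver and oxidative tissues, did not exceed 0.153 FPKM in any library.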
